A study of Mus musculus with 16 samples.

Results

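The genes described here are 10 fibroblast markers, Col1a1, Col1a2, Col3a1, Twist1, Twist2, S100a4, Fn1, Thy1, Vim and Postn, of the 22367 protein-coding genes of the annotation. They were chosen by name as genes of the feeder cells on which the ES cells grew, with earlier results of these lists known, and their regions were selected by position. A region was assigned to a gene where it overlapped the gene body or lay within 50 kb of one of its transcription start sites (TSSs). The last region inside this limit lay 49.7 kb from a TSS, an H3K4Me1 region of the male list at Thy1, and the first outside it lay 50.5 kb away, an H3K27Me3 region of the male list at Col1a1. Because names and regions were chosen with results in view, all values are descriptions and no test was made.

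ES cells of XX (female) and XY (male) mice were compared by ChIP-seq for 3 histone marks, H3K27Ac, H3K27Me3 and H3K4Me1. The lines were hybrids of C57BL/6 and CAST/EiJ at passages 7 to 10. Both sexes were cultured with serum and LIF on inactivated mouse embryonic fibroblasts (MEFs) from pooled male and female C57BL/6 embryos. The MEFs were depleted after the cells were collected and before crosslinking. For each sex and mark 2 lines were assayed, with 1 IgG and 1 input library per sex, and the authors deposited 6 lists of enriched regions. A list gives the position of each region and no signal, so presence and width are the only values, there is 1 list per sex and mark, and read depth is unknown.

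H3K27Ac lies at active promoters and enhancers, H3K4Me1 at enhancers whether active or primed, and H3K27Me3, set by a Polycomb complex, at repressed genes. Fibroblasts are the connective tissue cells that build collagen-rich matrix, and many developmental regulators of mesenchyme are held under H3K27Me3 in ES cells. Some fibroblast markers are also used by other cells, Fn1 and Vim among them. The methods put the MEFs left after depletion at a small share of the cells, and no value in the lists measures that share. In such a list, a region present in some of the cells cannot be told apart from a weaker mark in all of them.

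The female and male lists held 28784 and 26100 H3K27Ac regions, 18534 and 15138 H3K27Me3 regions, and 39404 and 34800 H3K4Me1 regions. The female list was thus the longer one for each mark. Of 12 pluripotency genes listed, 11 were found by symbol in the annotation, and all 11 had H3K27Ac within 2 kb of a TSS in each sex. The shares of protein-coding genes were 50.6% in the female list and 50.5% in the male. Housekeeping genes had it at 9 of 10 in each list, so this count alone does not single out ES cells. On the Y chromosome the female list held 6 H3K27Ac regions and no region of the other marks, and the male lists held 6, 13 and 3 regions of H3K27Ac, H3K27Me3 and H3K4Me1.

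At the fibroblast markers H3K27Ac was found more widely in the male list. All 13 H3K27Ac regions of the female list overlapped a male region, whereas 8 of the 22 male regions overlapped none in the female list, which is 36.4%. These 8 male-only regions lay at Col1a1, Twist1, Twist2, S100a4 and Fn1. Among all H3K27Ac regions, 19.1% of the female list and 10.4% of the male list had no counterpart. At least 1 male-only H3K27Ac region was present at 5 of the 10 genes, against 19.8% of protein-coding genes, and a female-only one at 0, against 31.3%. The 10 windows summed to 1110 kb, of which H3K27Ac covered 77.3 kb in the female list and 123 kb in the male. More base pairs were covered in the male list at 8 of the 10 genes, against 35.8% of protein-coding genes, and in the female list at 1, Col1a2, against 43.3%.

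**Figure D1:**
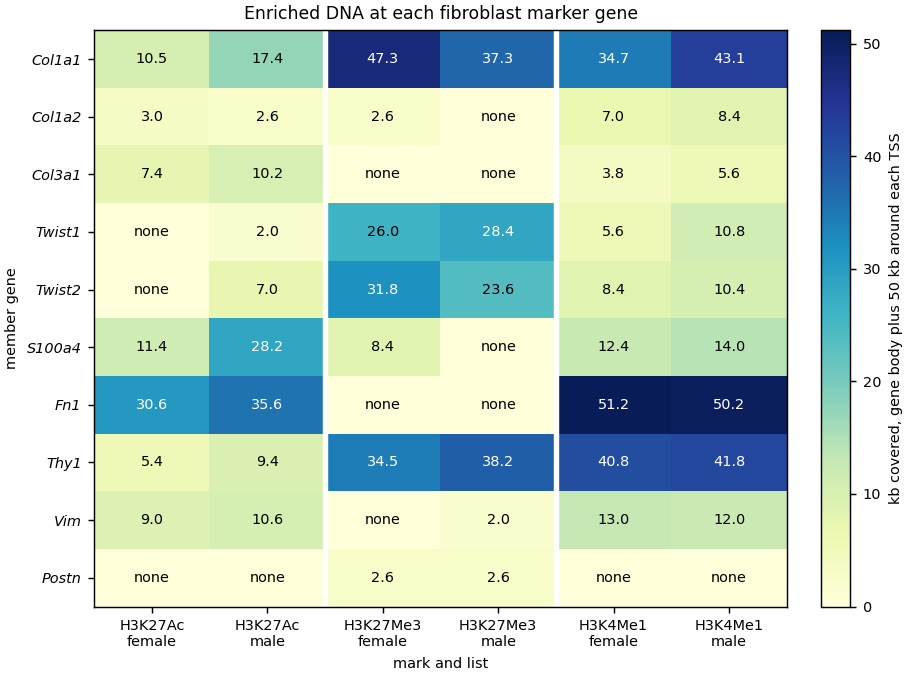
Base pairs covered by each mark, in kb, in the window of each fibroblast marker, with the female and the male list side by side. H3K27Ac coverage was higher in the male list at 8 of the 10 genes and was 0 in both lists at Postn.

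The named markers did not all carry active marks. Col1a2 and Col3a1, which encode chains of the fibrillar collagens I and III, had no region of any mark over the gene body in either list, and Postn, which encodes a secreted matrix protein, had H3K27Ac nowhere in its window. The part of feeder cells in any region at the markers was not tested.

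In the whole window, H3K27Ac was present at 7 genes of the female list and 9 of the male list, against 80.0% and 78.8% of protein-coding genes. H3K27Me3 was present at 7 and 6 genes, against 67.3% and 61.6%. H3K4Me1 was present at 9 genes in each list, against 77.9% and 77.5%, the exception being Postn.

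Near the start sites the female list had H3K27Ac at few of the markers. Within 2 kb of a TSS, H3K27Ac was found at 2 genes in the female list, Fn1 and Vim, against 50.6% of protein-coding genes, and at 5 in the male list, against 50.5%. H3K27Me3 was found there at 5 genes of the female list and 6 of the male list, against 32.9% and 28.8%. H3K4Me1 was found at 4 and 7 genes, against 60.6% and 59.4%. The genes that had H3K27Ac within 2 kb in the male list only were Col1a1, Twist1 and S100a4, which is 3 of 10 against a background of 2.75%, and 0 had it in the female list only, against 2.78%. H3K4Me1 was in the male list only at 3 genes, Twist1, Twist2 and S100a4, against 4.0%, and in the female list only at 0, against 5.23%. H3K27Me3 was in the male list only at 1 gene, Vim, against 3.17%, and in the female list only at 0, against 7.33%.

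The sequences before the gene starts differed widely in CpG content. The 200 bases before the 5′ end are given for the 5 genes with male-only H3K27Ac, for Vim, whose start had H3K27Me3 near it in the male list only, and for Col3a1, which had the fewest CpG dinucleotides. They were read from NCBIM37, the assembly of mm9, 5′ to 3′ on the gene's strand, with CpG in capitals.
Col1a1 (chr11:94797338-94797537, + strand): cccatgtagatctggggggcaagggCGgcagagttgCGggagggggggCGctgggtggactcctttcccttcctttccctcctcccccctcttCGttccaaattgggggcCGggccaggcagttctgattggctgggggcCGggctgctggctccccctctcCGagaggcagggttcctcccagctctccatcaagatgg
Twist1 (chr12:34642336-34642535, + strand): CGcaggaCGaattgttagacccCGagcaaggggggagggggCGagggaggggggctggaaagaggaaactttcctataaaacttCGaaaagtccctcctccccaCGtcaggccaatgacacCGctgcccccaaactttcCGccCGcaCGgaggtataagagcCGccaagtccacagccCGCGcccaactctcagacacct
Twist2 (chr1:93697838-93698037, + strand): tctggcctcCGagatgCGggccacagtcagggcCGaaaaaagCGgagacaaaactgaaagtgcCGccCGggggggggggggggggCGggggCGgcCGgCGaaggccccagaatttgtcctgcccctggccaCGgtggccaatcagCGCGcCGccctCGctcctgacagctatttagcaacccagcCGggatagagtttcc
S100a4 (chr3:90407492-90407691, + strand): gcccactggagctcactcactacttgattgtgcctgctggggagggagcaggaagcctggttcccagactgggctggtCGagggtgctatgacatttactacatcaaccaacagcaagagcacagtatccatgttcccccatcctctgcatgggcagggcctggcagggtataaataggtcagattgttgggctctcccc
Fn1 (chr1:71699775-71699974, - strand): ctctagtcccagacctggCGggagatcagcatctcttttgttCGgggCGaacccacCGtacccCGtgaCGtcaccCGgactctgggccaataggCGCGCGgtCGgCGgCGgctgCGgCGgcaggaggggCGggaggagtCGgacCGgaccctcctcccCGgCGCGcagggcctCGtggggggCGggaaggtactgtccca
Vim (chr2:13495354-13495553, + strand): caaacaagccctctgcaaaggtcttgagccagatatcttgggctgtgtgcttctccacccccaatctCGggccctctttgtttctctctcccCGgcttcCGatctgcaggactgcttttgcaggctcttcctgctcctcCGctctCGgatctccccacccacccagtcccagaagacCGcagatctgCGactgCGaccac
Col3a1 (chr1:45368183-45368382, + strand): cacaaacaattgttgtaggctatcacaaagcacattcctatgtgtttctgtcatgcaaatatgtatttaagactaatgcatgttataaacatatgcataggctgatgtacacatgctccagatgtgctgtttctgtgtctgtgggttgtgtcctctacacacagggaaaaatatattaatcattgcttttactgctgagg

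Fn1 had 23 CpG dinucleotides, the most of the 10, Twist2 had 16, Twist1 13, Vim 8 and Col1a1 7, while S100a4 had 1 and Col3a1 had 0. The median over all protein-coding genes was 7, with quartiles of 2 and 15. The 5 genes with male-only H3K27Ac thus ran from 1 to 23 CpG. Of the genes not printed, Thy1 had 6, Postn 3 and Col1a2 1. The letters TATAAA, searched on both strands, occurred in 4 of the 10, starting 31 bases before the 5′ end in S100a4, 28 in Postn, 117 in Col3a1 and 126 in Twist1, and in 10.1% of all promoters of this length. The letters CCAAT occurred in 7 of the 10, on either strand, and in 30.6% of all. The 5′ end used here is the outermost boundary of the annotated gene. Several genes had more than 1 annotated TSS, among them Col1a1 with 5, Col1a2 with 8, Postn with 9 and Vim with 4. Bases before their other TSSs were not searched, so a missing match does not mean that a gene lacks these letters near a start.

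Col1a1, which encodes the main chain of collagen I, lies at chr11:94797538-94814356 on the plus strand and is 16.8 kb long. Its start was under H3K27Me3 in both lists, in a region of 19.4 kb in the female list, from 6.14 kb upstream to 13.3 kb downstream of the 5′ end, and of 19.6 kb in the male list, from 4.14 kb upstream to 15.5 kb downstream. H3K27Me3 covered 78.9% of the gene body in the female list and 91.9% in the male. H3K4Me1 also lay over the start in both lists, in regions of 6.4 and 7.2 kb.

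Upstream of Col1a1 the male list had a pair of H3K27Ac regions that the female list lacked. The nearer one, chr11:94794201-94796799, was 2.6 kb wide and ended 0.739 kb before the 5′ end. All of it lay under H3K27Me3 and under H3K4Me1 in both lists. The farther one, chr11:94787001-94791599, was 4.6 kb wide and lay 10.5 to 5.94 kb upstream. A male-only H3K4Me1 region of 5.2 kb began at the same base and covered 100% of it, the female H3K4Me1 list had nothing there, and a female-only H3K27Me3 region of 1.2 kb and the edge of the large region covered 21.7% of it. The nearest H3K27Ac of the female list was 21.6 and 26.8 kb away from these regions. The other H3K27Ac in the window was shared, downstream of the gene (2.2 kb in the female list and 3.2 kb in the male) and over the TSS of Ppp1r9b (8.8 and 7 kb).

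Col1a2, at chr6:4454814-4491543 on the plus strand, encodes the second chain of collagen I. Its H3K27Ac was a single shared region downstream of the gene, 3 kb wide in the female list and 2.6 kb in the male, with H3K4Me1 of 3.2 and 4.4 kb over the same stretch. The only H3K27Me3 was a female-only region of 2.6 kb further downstream, 97.2 kb from any of the male list.

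Col3a1, at chr1:45368383-45406551 on the plus strand, encodes collagen III. Its nearest H3K27Ac lay 28.7 kb from a TSS in the female list and 26.9 kb in the male, in a shared region of 5 and 6.6 kb downstream of the gene, and a further shared region of 2.4 and 3.6 kb lay upstream. No H3K27Me3 was closer than 174 kb in the female or 175 kb in the male list. The lack of all marks within 2 kb of a TSS, seen at both Col1a2 and Col3a1, was found at 5953 protein-coding genes, these included, or 26.6%.

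Twist1, at chr12:34642536-34644682 on the plus strand, encodes a basic helix-loop-helix transcription factor of mesenchyme. Its start lay under H3K27Me3 in both lists, split in the female list into regions of 7.8 and 12.8 kb and joined in the male list into one of 22.6 kb. H3K27Me3 covered 86.8% of the gene body in the female list and 100% in the male. The male list also had H3K27Ac over the TSS, in a region of 2 kb at chr12:34641601-34643599, from 0.935 kb upstream to 1.06 kb downstream. All of this region lay under H3K27Me3 in both lists. A male-only H3K4Me1 region of 2.4 kb ended 0.337 kb before the TSS and covered 30% of it. The female list had no H3K27Ac within 108 kb of this region. The combination of marks at the start of Twist1 was found at 26 protein-coding genes, Twist1 included, or 0.116%.

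Twist2, at chr1:93698038-93744605 on the plus strand, encodes a close relative of Twist1. Its start too was under H3K27Me3 in both lists, 14.4 kb wide in the female list and 11 kb in the male. The male-only H3K27Ac lay elsewhere, in an intron, as regions of 2 kb (chr1:93712001-93713999) and 5 kb (chr1:93718801-93723799) that began 14 and 20.8 kb downstream of the TSS. Neither H3K27Me3 nor H3K4Me1 of either list overlapped them, and the nearest male H3K4Me1 was 12.2 and 19 kb away. The nearest female H3K27Ac was 101 and 91.2 kb away. Over the TSS itself the male list had an H3K4Me1 region of 3 kb with no counterpart in the female list, whose nearest region was 26.8 kb away.

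S100a4, at chr3:90407692-90409967 on the plus strand, encodes a calcium-binding protein known as fibroblast-specific protein and stands in a cluster of S100 genes. The male list had H3K27Ac of 11.4 kb at chr3:90401001-90412399, from 6.69 kb upstream to 4.71 kb downstream, over the TSSs of S100a3 and S100a4 and over 100% of the S100a4 gene body. It was wider than 92.3% of male H3K27Ac regions and than 99.9% of the male-only ones. A male-only H3K4Me1 region of 5.6 kb covered 49.1% of it. No H3K27Me3 of either list overlapped it. The nearest H3K27Ac of the female list was 2.6 kb away, over the TSS of the neighbour S100a6, where the female region was 5.2 kb and the male one 8 kb wide. The region cannot be assigned to S100a4 rather than S100a3 from its position. The female list had H3K4Me1 of 6.6 kb over the S100a6 TSS that the male list lacked, and female-only H3K27Me3 of 3.2 and 5.2 kb, ending 36.5 and 30.5 kb upstream. The combination of marks at the start of S100a4 was found at 17 protein-coding genes, S100a4 included, or 0.076%, the fewest of the 10.

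**Figure D2:**
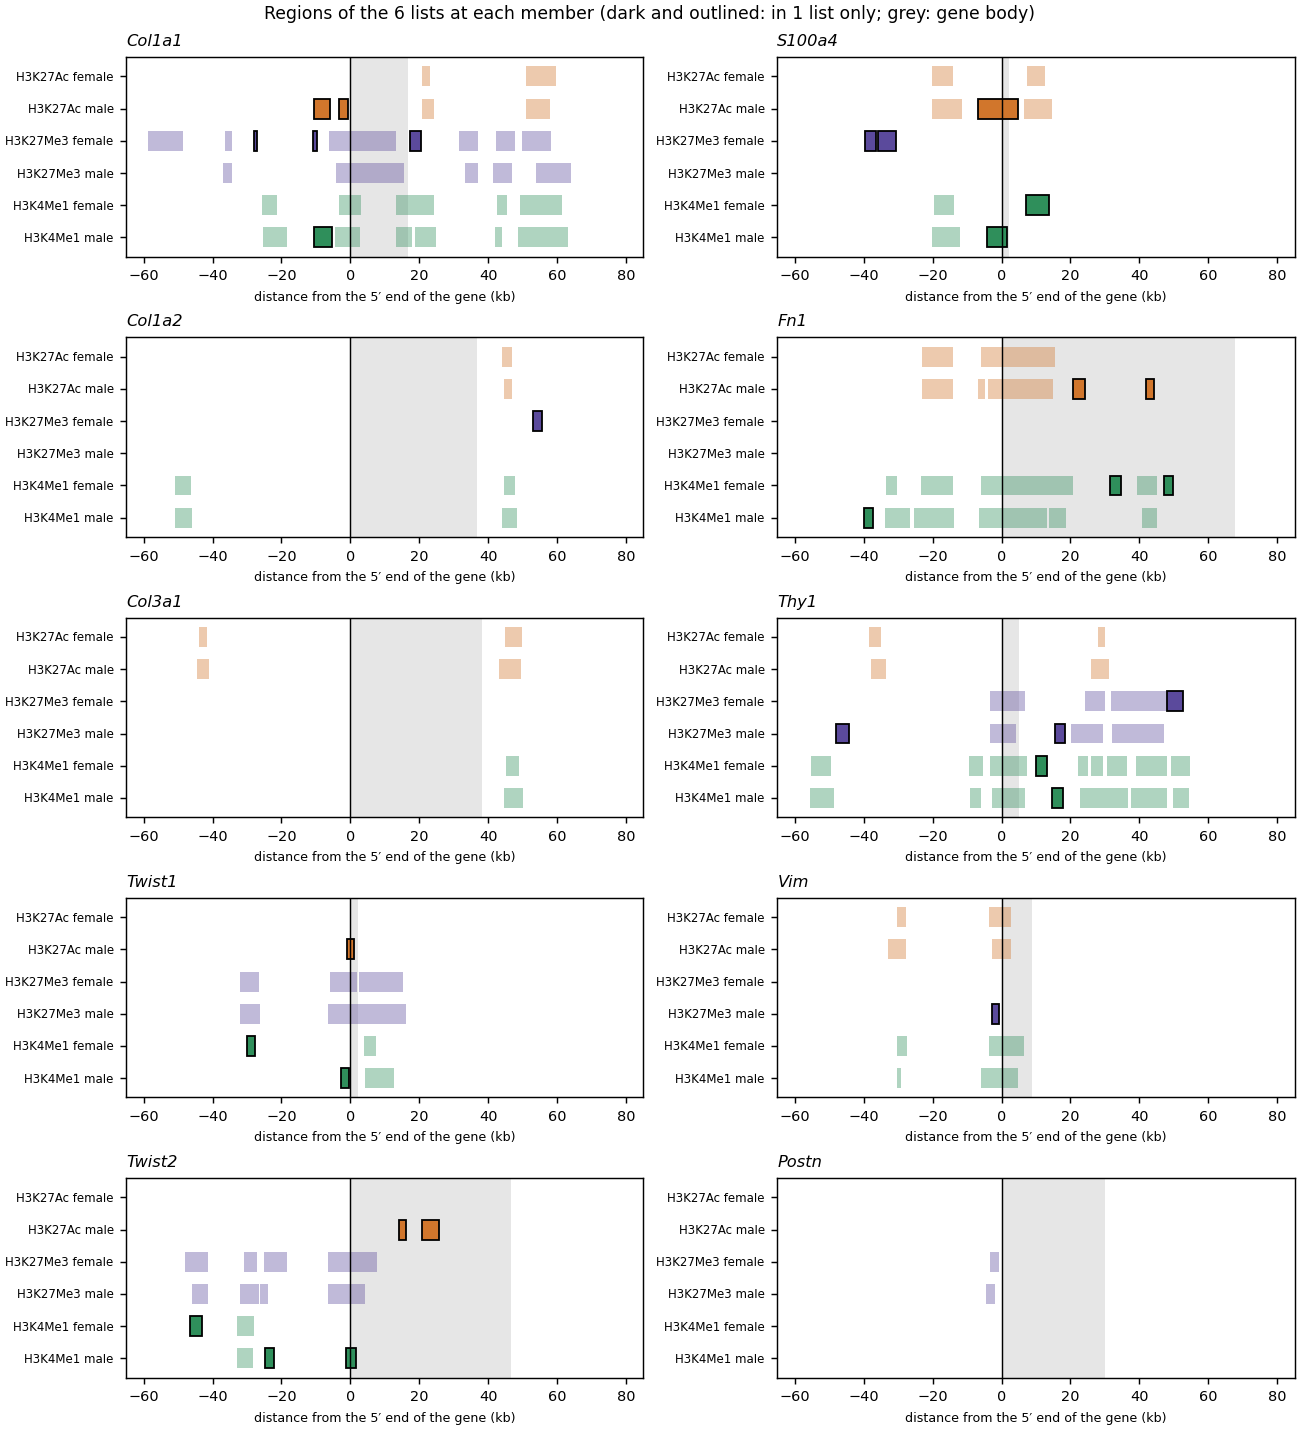
Regions of the 6 lists at each fibroblast marker, by distance from the 5′ end in kb. The 8 male-only H3K27Ac regions lie over the TSSs of Twist1 and S100a4, upstream of Col1a1, and inside Twist2 and Fn1.

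Fn1, at chr1:71632094-71699774 on the minus strand, encodes fibronectin, a matrix glycoprotein. It had broad H3K27Ac over its start in both lists, 21.4 kb in the female list and 18.8 kb in the male, and no H3K27Me3 within 383 kb. H3K4Me1 over the start was 26.8 kb wide in the female list and 19.8 kb in the male. The single region over the start was thus wider in the female list for both marks. In the male list a separate region, of 2 kb for H3K27Ac and 4.8 kb for H3K4Me1, also overlapped this female region. H3K27Ac in the whole window covered 30.6 kb in the female list and 35.6 kb in the male. Inside the gene the male list had H3K27Ac regions of 2.4 kb (chr1:71655601-71657999) and 3.6 kb (chr1:71675601-71679199) over exons, which the female list lacked. The nearest female H3K27Ac was 26.4 kb from the first and 5.2 kb from the second. The first lay wholly under H3K4Me1 of both lists. The second met H3K4Me1 of the female list over 5.53% of its length and none of the male list. The TSS nearest to them was that of Atic for the first and of Apol7d for the second, and the latter starts beside Fn1. The marks at the start of Fn1 were those of 6210 protein-coding genes, or 27.8%.

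Thy1, at chr9:43851467-43856662 on the plus strand, encodes a surface glycoprotein of fibroblasts, neurons and T cells. Its start lay under H3K27Me3 (10.4 kb in the female list and 7.4 kb in the male) and H3K4Me1 (10.8 and 9.8 kb) in both lists. H3K27Ac was found only away from the gene, 34.9 and 33.5 kb upstream, and near the start of Usp2, where it was 2 kb wide in the female list and 5 kb in the male. No H3K27Ac region at Thy1 was in 1 list only.

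Vim, at chr2:13495554-13504453 on the plus strand, encodes the intermediate filament vimentin. It had H3K27Ac over the TSS in both lists, 6.4 kb in the female list and 5.4 kb in the male, with H3K4Me1 of 10 and 10.8 kb. The male list had, in addition, H3K27Me3 of 2 kb upstream of the TSS, at chr2:13492801-13494799, beginning at the same base as the male H3K27Ac region. The female list had no H3K27Me3 within 189 kb of it. Vim was the only 1 of the 10 with H3K27Me3 near its start in 1 list only.

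Postn, at chr3:54165031-54194961 on the plus strand, encodes periostin. It had 1 H3K27Me3 region of 2.6 kb in each list, ending 0.832 kb before the TSS in the female list and 1.83 kb in the male. The nearest H3K27Ac was 303 kb and the nearest H3K4Me1 203 kb away in both lists.

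Across the 8 male-only H3K27Ac regions the other marks were mixed. H3K27Me3 lay under 2 of them in both lists, at Col1a1 and Twist1, under 1 in the female list only, and under 5 in neither. Among all 2725 male-only H3K27Ac regions, 15.5% had H3K27Me3 in both lists, 6.5% in the female list only, 3.49% in the male list only and 74.5% in neither. H3K4Me1 lay under 2 in both lists, under 3 in the male list only (Col1a1, Twist1 and S100a4), under 1 in the female list only and under 2 in neither. Of all male-only H3K27Ac regions, 60.2% had H3K4Me1 in both lists, 8.62% in the male list only, 4.88% in the female list only and 26.3% in neither. The lists do not tell whether acetylation and methylation over the same bases were on the same chromosomes.

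For the other marks the single-list regions were in both directions. H3K27Me3 was female-only in 7 of 24 regions (29.2%, against 39.8% of the whole list), at 4 genes against 43.1% of protein-coding genes, and male-only in 3 of 18 (16.7%, against 23.6%), at 2 genes against 22.7%. The female-only ones lay at Col1a1, Col1a2, S100a4 and Thy1, and the male-only ones at Thy1 and Vim. H3K4Me1 was female-only in 6 of 31 regions (19.4%, against 21.8%), at 5 genes against 47.4%, and male-only in 7 of 33 (21.2%, against 13.1%), at 6 genes against 25.5%. The female-only H3K4Me1 regions lay at Twist1, Twist2, S100a4, Fn1 and Thy1, and the male-only ones at those 5 genes and Col1a1.

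**Figure D3:**
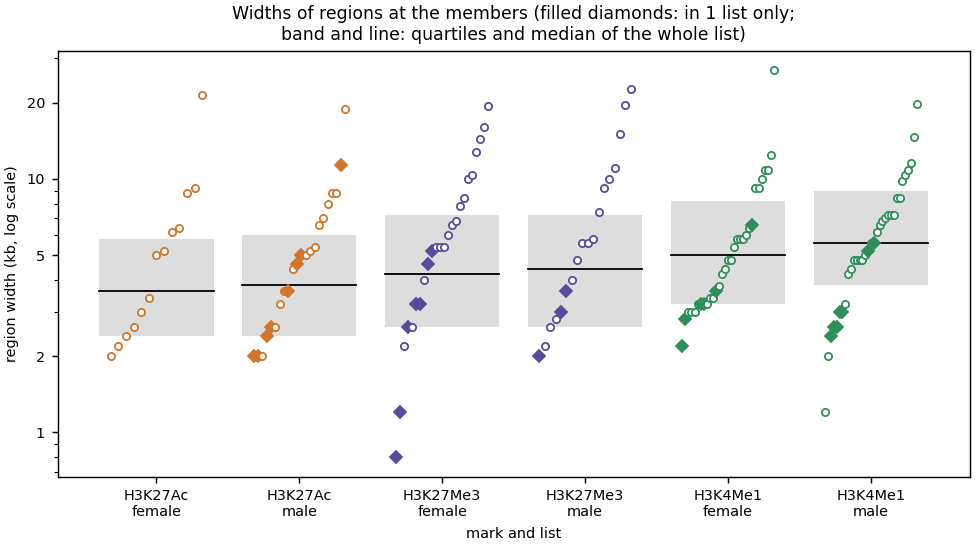
Width in kb, on a log axis, of each region at the fibroblast markers by mark and list, with regions in 1 list only set apart. The male-only H3K27Ac regions ran from 2 to 11.4 kb.

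Median widths at the markers lay close to each other in the female and male lists. The median width at the 10 genes was 5 kb in the female list and 4.8 kb in the male for H3K27Ac, 5.4 and 5.6 kb for H3K27Me3, and 4.8 and 5.6 kb for H3K4Me1. In the whole lists the medians were 3.6 and 3.8 kb, 4.2 and 4.4 kb, and 5 and 5.6 kb. The widest regions at the 10 genes were H3K4Me1 of 26.8 kb at Fn1 in the female list and H3K27Me3 of 22.6 kb at Twist1 in the male list.

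Other genes that fibroblasts express were set beside the markers, in a list of 34. Their H3K27Ac regions were male-only in 15 of 48 (31.2%) and female-only in 6 of 42 (14.3%). Leaving out regions that also lie at a marker, the counts were 14 of 44 and 6 of 39. Col5a1 and Fbn1, which encode a collagen V chain and fibrillin, each had a male-only region of 3.6 kb, Col5a2, for another collagen V chain, had 2 male-only regions, and Fbln1, for fibulin, had a region of 2 kb in each list alone. Of the 34 genes, 10 had a male-only region and 5 a female-only one, against 19.8% and 31.3% of protein-coding genes. For S100a6, 1 of the 10, the only male-only region was the one of 11.4 kb already counted at S100a4. Any H3K27Ac was present in the window of 18 of the 34 genes in the female list and 19 in the male. The shares of protein-coding genes were 80.0% and 78.8%. Named after their values were seen, Serpinh1, for a collagen chaperone, had 2 female-only regions, and Mmp2, for a matrix metalloproteinase, and Snai2, for a zinc finger transcription factor, had 1 each, with no male-only region at these genes. Pluripotency genes had 7 of 46 female-only (15.2%) and 0 of 40 male-only, the female-only ones at Sox2, Nanog, Esrrb and Zfp42 among others. Among all H3K27Ac regions the female-only share was also the larger, 19.1% against 10.4% male-only. Endothelial genes had 5 of 20 female-only (25%) and 1 of 17 male-only (5.88%), the female-only ones at Cdh5, Kdr, Tek and Flt1. The male-only one, of 2.2 kb, also lay at Flt1, which had H3K27Ac within 2 kb of a TSS in the male list only. Housekeeping genes had 9 of 52 female-only (17.3%) and 3 of 46 male-only (6.52%). These lists were chosen with results of these data known and give no independent evidence of a direction.

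**Figure D4:**
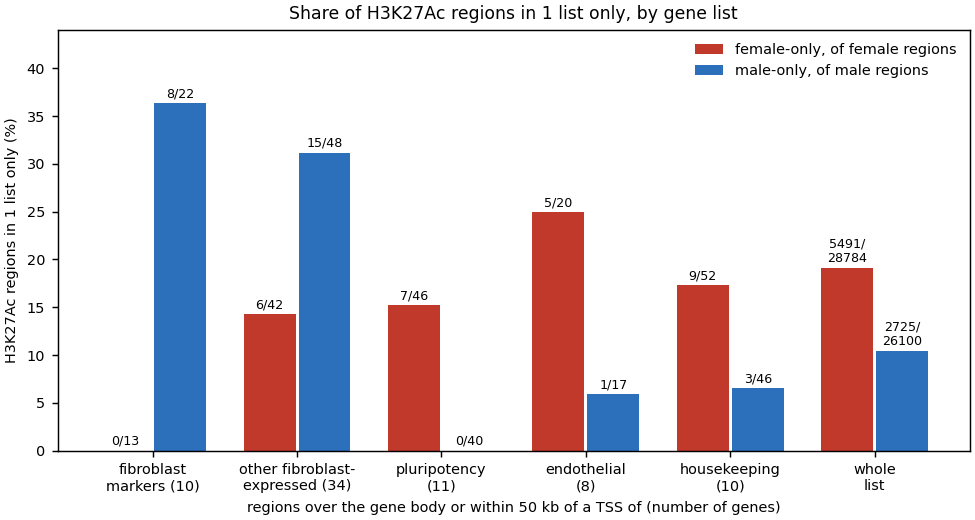
Share of H3K27Ac regions present in 1 list only, in percent, for each gene list and for the whole list, by sex. The fibroblast markers had 0% in the female list and 36.4% in the male, while the whole lists had 19.1% and 10.4%. The bars of the other fibroblast-expressed genes include regions that also lie at a marker.

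The feeders were of both sexes, so Y-linked genes were examined in the female lists. Of Ddx3y, Uty, Kdm5d and Eif2s3y, 0 of 4 had a region of any mark within 2 kb of a TSS in the female lists, and the only region in their windows was 1 shared H3K27Ac region at Eif2s3y. In the male lists too, only 1 of the 4, Uty, had H3K27Ac or H3K4Me1 within 2 kb of a TSS. These regions, of 2 and 5.6 kb, were lacking from the female lists. H3K27Me3 was found there at 0 of 4. Most of these genes thus had no mark near the start in XY cells either. The female counts therefore cannot measure the presence of feeder cells, which was not tested. Since the male lines carry these genes themselves, male lists cannot tell feeder cells apart from the lines.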

How the data were processed

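ChIP-seq of H3K27Ac, H3K27Me3 and H3K4Me1 in XX and XY ES cells was taken from 6 deposited lists, which hold coordinates alone. The authors aligned reads with Bowtie2 to mm9 and used Bedtools for enrichment, and the submitters' notes name Bowtie and deepTools. The region caller, its threshold, the use of IgG and input and the pooling of lines were not given in the sources used here. Regions start on a grid of 200 bp. Samples were grouped by their labels. Depth is unknown, which leaves no measure of precision for a region.

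Genes came from GENCODE on NCBIM37, the assembly of mm9. Regions of the same mark overlapping by at least 1 bp were counted as shared, and a gene's start as marked within 2 kb of any TSS. The members and lists were chosen with earlier results of these data known. All 10 members were named, and up to 4 genes of each other list in list order. Serpinh1, Mmp2 and Snai2 of the fibroblast-expressed list were named in addition, after their values were seen. S100a6 was named for the region it shares with S100a4. No test was made, since each sex and mark has 1 list. Overlaps were checked with Bedtools 2.31.1 and on simulated intervals. Computation used Python 3.11.15, numpy 2.4.6 and pandas 2.3.3. The 10 alternatives varied the window, the overlap, the list lengths and the genes.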

Additional observations from a re-analysis of the deposited data

How the results depend on the processing

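With 12 counts under 10 alternatives, 81 of 108 values stayed within 1.5 times the value reported and 27 did not. With the window cut to 5 kb around a TSS plus the gene body, H3K27Ac was present at 2 genes in the female list and H3K4Me1 at 5, and the single-list regions numbered 0 female and 1 male for H3K27Me3 and 2 female and 3 male for H3K4Me1. Within 2 kb, H3K27Ac was present at 2 genes of the female list and 5 of the male list and H3K4Me1 at 4 in the female list, with 3 male-only H3K27Ac regions, 0 female and 1 male for H3K27Me3, and 0 female and 3 male for H3K4Me1. Within 100 kb the female-only regions were 1 for H3K27Ac, 11 for H3K27Me3 and 11 for H3K4Me1. With a reciprocal overlap of 50%, female-only H3K27Ac regions were 2, male-only H3K27Me3 regions 5, and H3K4Me1 regions 13 female-only and 15 male-only. In the widest 50% of each list, H3K27Me3 had 4 female-only and 1 male-only regions, and H3K4Me1 had 3 female-only regions and was present at 5 genes in the female list. Where the nearest coding TSS had to be the member's, an alternative chosen after seeing the data, female-only regions were 3 for H3K27Me3 and 2 for H3K4Me1. Male-only H3K27Ac regions were between 3 and 11 under all 10 alternatives and outnumbered the female-only ones in each. They were 7 without S100a4, an alternative also chosen after seeing the data. Narrower windows and fewer regions lower a count by construction. No paired analysis was possible because the lists give no values for single lines and male and female lines share no replicate number.

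Each sex and mark has 1 list without signal or depth, and the threshold a region had to pass is unknown. The sexes' lists also differ in length, and differences between lines of a sex cannot be seen. Leaving out a replicate was not possible.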
